A study of Homo sapiens with 12 samples.

Results

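The genes described here are 58 genes of DNA replication and S-phase entry, taken as a fixed list of symbols and placed in 7 groups by role. There were 14 genes of origin licensing, 6 of helicase activation, 20 of the replication fork, 4 of nucleotide supply, 6 of checkpoint and repair, 4 of chromatin replication and 4 other genes of S-phase entry. The deposited tables cover 43481 genes, of which 15263 had enough counts for testing, and all 58 listed genes were among them. RNA was taken from RPE-1, a human retinal pigment epithelial cell line immortalised with telomerase, in 12 libraries of poly-A RNA, 3 for each of 4 groups. Every group had been kept for 24 h in medium lacking fetal calf serum (FCS) and glucose. Starved cells were harvested at that point. Solvent cells were then given 10% FCS and 5 g/l glucose for 4 h in the presence of DMSO. DMA cells received the same with 100 µM dimethyl amiloride, an inhibitor of Na+/H+ exchange, and C646 cells the same with 10 µM C646, which inhibits p300 and CBP, a pair of histone acetyltransferases. Libraries are numbered 1 to 3 within each group in the labels, with no word on separate cultures, so p-values measure only the spread between these libraries, which may be technical.

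Cells that leave quiescence license their origins in G1, when ORC, CDC6 and CDT1 load the MCM2 to MCM7 ring onto DNA. At the start of S phase CDC45, the GINS complex and MCM10 turn that ring into an active helicase, and polymerases, the PCNA clamp and its RFC loader follow at the fork. Many of these genes are known targets of E2F transcription factors, which are held back by retinoblastoma proteins in resting cells and released by cyclin-dependent kinases. In bulk RNA, fewer cells of a cell cycle phase and less RNA per cell cannot be told apart.

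Promoter sequences of 50 of the 58 genes were found in the RefSeq table (GRCh38.p14), each running from 250 bases before to 50 bases after an annotated start. An E2F-like motif, TTTCCCGC, TTTCGCGC, TTTGCCGC or TTTGGCGC on either strand, was present in 26 of 50 (52.0%), using the first start listed for each gene. The same window held it in 3.33% of 27305 genes and in 5.26% of the 10794 genes tested that had a promoter. Counting any listed start, the shares were 56.0% of the 50 genes and 6.49% of the genes tested. The pentamer CCAAT occurred in 58% of the 50 promoters and 36.8% of those of genes tested. The cell cycle homology element TTTGAA occurred in 2.0% and 9.81%. By role, the E2F-like motif was found in 8 of 12 promoters of licensing genes, 3 of 5 of helicase activation, 7 of 17 of the fork, 1 of 4 of nucleotide supply, 3 of 6 of checkpoint and repair, 2 of 4 of chromatin replication and 2 of 2 of the other genes. It was present in 8 of 12 promoters of genes called in at least 1 comparison with solvent cells and in 18 of 38 promoters of the others. These matches describe letters in a window and are not binding sites. The promoters below belong to the 6 called genes with the smallest p-values among those that hold the motif, so that genes that moved in different directions can be set side by side. The E2F-like letters are in capitals, and the other letters are in lower case. The chromosome is 20 for PCNA, 9 for ZNF367, 2 for SMC6 and CDCA7, 16 for CDT1 and 1 for CLSPN. A decimal after the chromosome in a label has no meaning.
PCNA, chr20.0:5126573-5126872, minus strand: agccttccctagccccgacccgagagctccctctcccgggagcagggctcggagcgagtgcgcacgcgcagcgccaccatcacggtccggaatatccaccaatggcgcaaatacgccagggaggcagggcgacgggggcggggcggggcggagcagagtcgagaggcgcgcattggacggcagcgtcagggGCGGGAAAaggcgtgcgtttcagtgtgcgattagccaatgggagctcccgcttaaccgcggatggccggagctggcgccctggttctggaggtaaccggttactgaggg
ZNF367, chr9.0:96418321-96418620, minus strand: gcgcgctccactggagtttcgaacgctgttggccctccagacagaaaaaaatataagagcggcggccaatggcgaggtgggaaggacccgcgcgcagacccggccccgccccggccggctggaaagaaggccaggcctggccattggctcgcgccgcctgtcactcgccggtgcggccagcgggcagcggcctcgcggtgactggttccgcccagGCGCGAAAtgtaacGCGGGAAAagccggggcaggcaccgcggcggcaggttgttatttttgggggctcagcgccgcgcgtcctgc
SMC6, chr2.0:17753761-17754060, minus strand: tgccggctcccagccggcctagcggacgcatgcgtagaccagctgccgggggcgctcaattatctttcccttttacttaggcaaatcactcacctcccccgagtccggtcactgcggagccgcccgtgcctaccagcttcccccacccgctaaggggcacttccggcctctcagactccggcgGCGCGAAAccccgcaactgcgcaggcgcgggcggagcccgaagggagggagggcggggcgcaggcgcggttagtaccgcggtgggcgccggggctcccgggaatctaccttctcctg
CDCA7, chr2.0:173354622-173354921, plus strand: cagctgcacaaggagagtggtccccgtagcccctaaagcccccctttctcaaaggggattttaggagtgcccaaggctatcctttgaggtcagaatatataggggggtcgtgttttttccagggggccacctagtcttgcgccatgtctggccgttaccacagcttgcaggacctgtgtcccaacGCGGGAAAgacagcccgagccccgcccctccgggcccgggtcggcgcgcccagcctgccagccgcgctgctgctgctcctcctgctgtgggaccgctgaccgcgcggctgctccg
CDT1, chr16.0:88803539-88803838, plus strand: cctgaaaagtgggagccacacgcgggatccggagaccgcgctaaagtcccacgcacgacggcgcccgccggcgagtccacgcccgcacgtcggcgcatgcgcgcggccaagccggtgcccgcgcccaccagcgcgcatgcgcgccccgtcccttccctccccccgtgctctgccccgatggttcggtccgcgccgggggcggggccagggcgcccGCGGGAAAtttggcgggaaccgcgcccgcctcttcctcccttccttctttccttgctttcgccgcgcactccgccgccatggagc
CLSPN, chr1.0:35769929-35770228, minus strand: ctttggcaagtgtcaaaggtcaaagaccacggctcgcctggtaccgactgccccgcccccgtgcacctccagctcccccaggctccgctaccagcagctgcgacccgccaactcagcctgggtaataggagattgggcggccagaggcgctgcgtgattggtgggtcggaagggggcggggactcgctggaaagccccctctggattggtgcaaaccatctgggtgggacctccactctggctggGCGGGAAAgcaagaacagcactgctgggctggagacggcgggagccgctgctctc

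The motif of PCNA began 59 bases before the start, that of SMC6 67, that of CDCA7 65, that of CDT1 35 and that of CLSPN 5. ZNF367 held a pair, beginning 35 and 21 bases before the start. CDT1, which fell after stimulation, and PCNA, CDCA7, CLSPN and ZNF367, which rose, hold the same 8 letters, GCGGGAAA. In ZNF367 these are at the site 21 bases before the start. The rises of CLSPN and ZNF367 were not called without solvent library 1.

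Before the comparisons, the libraries need a description. They hold 14910516 to 28968510 expected counts, and 3 counts correspond to 0.104 to 0.201 CPM (a gene's count relative to the library total, scaled between libraries), which covers counting error only. KRT8, KRT18, VIM and CDH2, which RPE-1 cells express, measured 220 to 7040 CPM. Of the markers of differentiated pigment epithelium, RPE65, RLBP1 and TYR reached at most 0.293 CPM, while BEST1 had 15 to 89 counts in every library. The markers of blood, immune, epithelial and endothelial cells reached at most 1.03 CPM. Solvent library 1 stood apart for the 58 genes. It had the highest level of all 12 libraries for 46 of them (79.3%), against 12% of all genes tested, and the highest of the 3 solvent libraries for 56. Its level divided by the mean of solvent libraries 2 and 3 had a median of 1.86 over the 58 genes, from 0.94 for TK1 to 4.01 for FAM111B, and 0.99 over all genes tested. This ratio was above 1.5 for 41 genes (70.7%), against 6.40% of all genes. By role, its median was 1.72 for licensing, 1.95 for helicase activation, 1.74 for the fork, 1.60 for nucleotide supply, 1.70 for checkpoint and repair, 1.88 for chromatin replication and 3.34 for the other genes. Markers of G2 and M phase were also highest there among the solvent libraries, with a median log2 ratio to the starved mean of 0.43 against -0.25 and -0.22 in solvent libraries 2 and 3. Values without that library are given below for the counts, the role medians and the genes whose value it moves most.

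**Figure D1:**
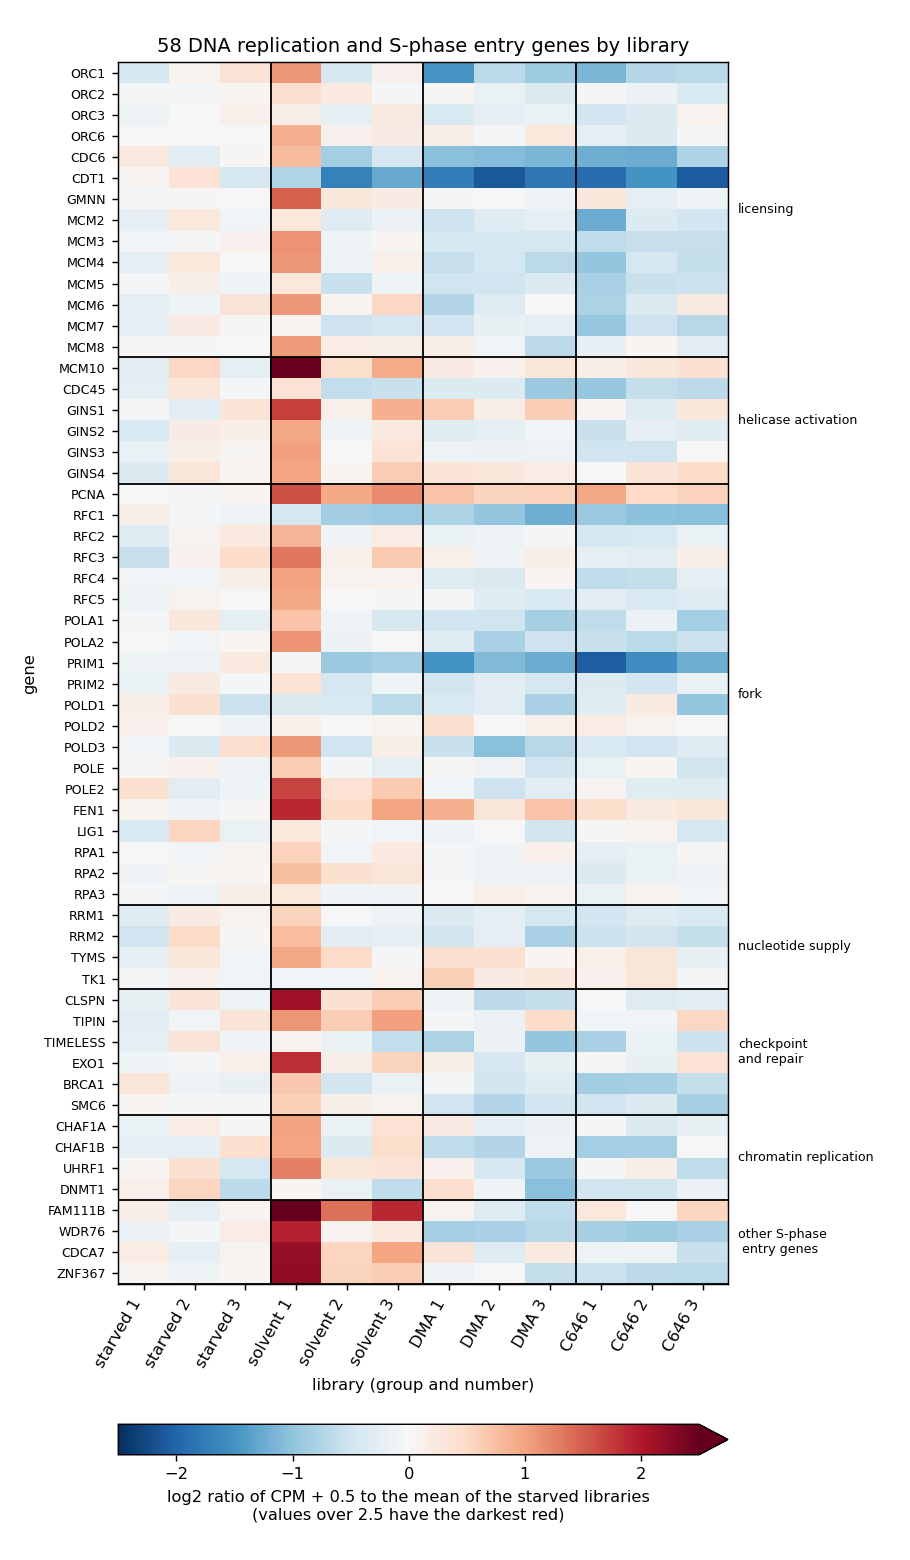
Each row is 1 of the 58 genes, each column 1 of the 12 libraries, and the colour is the log2 ratio of CPM + 0.5 to the mean of the 3 starved libraries. The column of solvent library 1 is red for most genes, while the columns of solvent libraries 2 and 3 are pale for most, red for FAM111B and PCNA and blue for CDT1 and RFC1.

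Setting solvent against starved cells addresses the first 4 h of refeeding with serum and glucose. Of the 58 genes, 11 rose and 2 fell (adjusted p below 0.05), 13 of 58 against 24.3% of all genes tested (12.6% higher and 11.7% lower). The libraries of the groups did not overlap for 13 genes that were higher and 2 that were lower, against 20.5% and 19.5% of all genes. PCNA, the sliding clamp, FEN1, the flap nuclease, FAM111B and CDCA7 rose, and CDT1, the licensing factor, and RFC1, the large subunit of the clamp loader, fell, with and without solvent library 1. Without that library, 4 of the 58 rose and 4 fell, CDC6 and PRIM1 having joined the lower ones, against 9.05% higher and 8.37% lower of all genes. The median log2 fold change of the 58 was 0.42 with all libraries and 0.05 without solvent library 1, and that of all genes was 0.00 and 0.01. Within library numbers, the median log2 ratio of solvent to starved was 1.08 for number 1, -0.11 for number 2 and 0.07 for number 3, with 53, 23 and 35 of the 58 genes above 0. Leaving out starved library 1 or 2 left 7 and 6 calls, and leaving out solvent library 2 gave 22, against 17.3%, 14.6% and 18.2% of all genes. Scaling to spike-in controls added to the libraries shifted all genes upward, their median by 0.60, and gave 26 higher and 0 lower calls, against 21.1% and 1.24% of all genes, so all directions here are relative to the other genes.

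**Figure D2:**
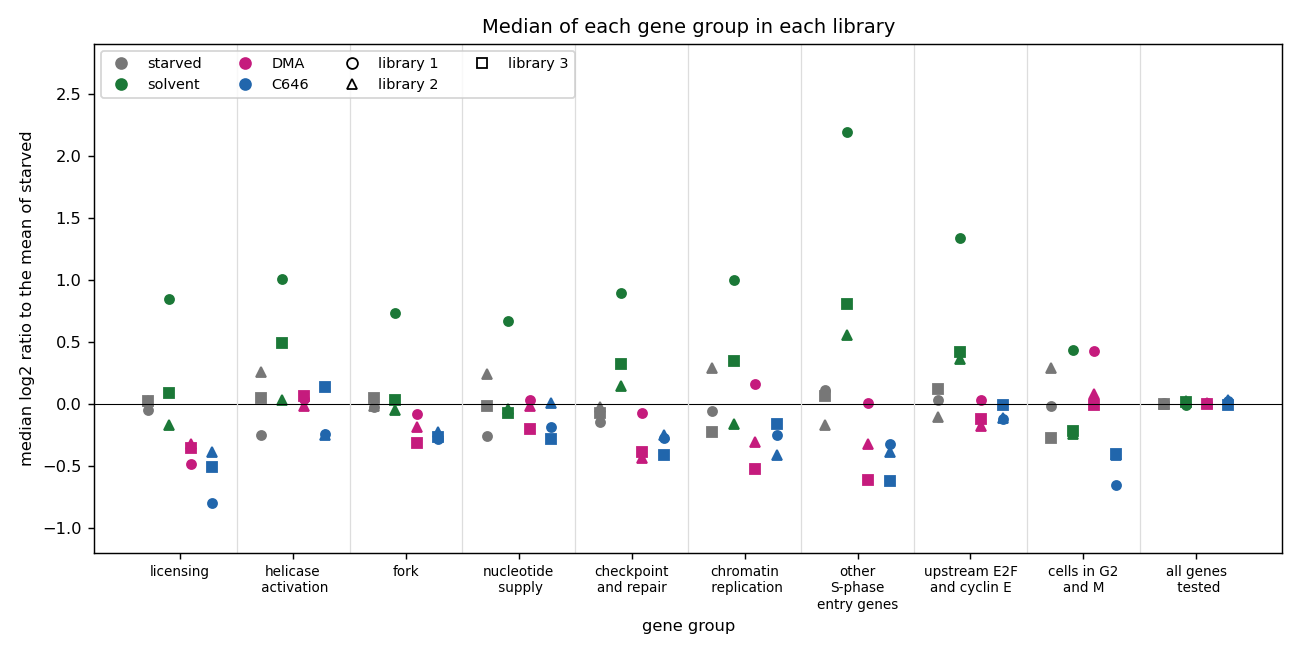
Each point is the median, over the genes of a group, of the log2 ratio of CPM + 0.5 in 1 library to the mean of the starved libraries, with colours for the 4 groups of cells and shapes for libraries 1 to 3. Solvent library 1 (green circle) lies between 0.67 and 2.19 in all 7 role groups, and the other green points lie between -0.17 and 0.81.

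In the licensing group, 1 of 14 genes was called after stimulation and it fell, against 12.6% higher and 11.7% lower of all genes. The log2 fold changes of the group ran from -1.27 to 0.80 with a median of 0.30 (-0.01 without solvent library 1). CDT1, which brings the MCM ring to origins, measured 17.4, 21.8 and 12.5 CPM in starved libraries 1, 2 and 3, 9.77, 4.88 and 6.71 with solvent, 4.72, 3.53 and 4.52 with DMA and 4.14, 5.61 and 3.57 with C646. Every starved library was above every stimulated one, and the DMA libraries were below the solvent ones. CDT1 (chromosome 16, 88803213 to 88809258 on GRCh38, plus strand) fell by 1.27 on the log2 scale with solvent (SE 0.28, adjusted p = 0.00567), and by 1.57 without solvent library 1 (adjusted p = 0.00391). With spike-in scaling it measured -0.79 (adjusted p = 0.14), which ends the call. Its differences with DMA (-0.75, SE 0.29, adjusted p = 0.178) and C646 (-0.68, SE 0.29, adjusted p = 0.249) from solvent did not pass, and were -0.45 and -0.38 without that library.

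CDC6, the ATPase that acts with CDT1, measured 46.9, 32.6 and 40.5 CPM in starved cells, 68.5, 21.6 and 29.4 with solvent, 19, 18.4 and 17.5 with DMA and 16.6, 16.4 and 22.9 with C646. Solvent library 1 was above and solvent libraries 2 and 3 were below all starved libraries. Its log2 fold change with solvent was -0.00 (SE 0.33) with all libraries, and CDC6 fell by 0.65 without solvent library 1 (adjusted p = 0.047). ORC1, the origin recognition subunit that varies through the cell cycle, measured 7.48, 10.8 and 13 CPM in starved cells, 22, 7.58 and 11 with solvent, 3.37, 6.17 and 5.28 with DMA and 4.35, 6.01 and 6.22 with C646. All libraries with either inhibitor were below all starved and solvent libraries. ORC1 had the lowest log2 fold changes of the licensing genes against solvent, -1.45 with DMA (SE 0.37, adjusted p = 0.0641) and -1.29 with C646 (SE 0.36, adjusted p = 0.0954), and these were -0.91 and -0.75 without solvent library 1.

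GMNN encodes geminin, which binds CDT1 and blocks relicensing. It measured 11.3, 11.8 and 11.6 CPM in starved cells, 33, 14.1 and 13.3 with solvent, 11.8, 11.6 and 10.9 with DMA and 14.3, 9.72 and 10.7 with C646. All solvent libraries were above all starved ones, and the log2 fold change of 0.80 (SE 0.29, adjusted p = 0.062) was the highest of the licensing genes and did not pass. Without solvent library 1 it was 0.25. MCM2, a subunit of the ring, measured 50.3, 69.9 and 55.6 CPM in starved cells, 69.4, 46.3 and 52.4 with solvent, 40.5, 46.5 and 48.9 with DMA and 24.4, 45.5 and 41.4 with C646. The count of MCM2 is uncertain, since genes on the other strand cover 23.6% of its exons. MCM7, another subunit, measured 120, 164 and 145 CPM in starved cells, 150, 98.4 and 106 with solvent, 102, 124 and 119 with DMA and 72.8, 99.0 and 87.6 with C646. Solvent overlapped starved cells for both, with log2 fold changes of -0.06 for MCM2 (SE 0.22) and -0.28 for MCM7 (SE 0.17), which were -0.25 and -0.49 without solvent library 1. ORC3, an origin recognition subunit, measured 23.3, 25.8 and 27.8 CPM in starved cells, 28.7, 21.8 and 29.8 with solvent, 19.6, 21.7 and 22.8 with DMA and 18.3, 19.8 and 27.2 with C646. The DMA libraries were all below the starved ones, the other groups overlapped, and the difference between C646 and solvent of -0.30 (SE 0.17) was the smallest of the licensing genes (-0.24 without solvent library 1). The other 7 genes of the group (ORC2, ORC6, MCM3, MCM4, MCM5, MCM6 and MCM8) were not called in the 3 comparisons that include solvent. DESeq2 called 2 licensing genes after stimulation (GMNN higher, CDT1 lower), against 28.5% of all genes. It called 5 lower with DMA and 5 lower with C646, ORC1 and CDC6 among them in both, against 3.63% and 2.76% of all genes lower.

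In helicase activation, 2 of 6 genes were called after stimulation, both higher, against 12.6% higher of all genes. Neither call held without solvent library 1. MCM10, which helps to start the helicase, measured 5.64, 9.96 and 5.70 CPM in starved cells, 40.4, 9.46 and 13.4 with solvent, 7.99, 7.42 and 8.56 with DMA and 7.71, 8.51 and 9.14 with C646. Solvent library 2 lay within the range of starved cells. MCM10 rose by 1.57 (SE 0.44, adjusted p = 0.0201), and measured 0.68 without solvent library 1 (adjusted p = 0.0951). It also missed the threshold without starved library 1 (0.0773) or starved library 3 (0.0668). GINS1, a subunit of the GINS complex, measured 8.32, 6.99 and 10.8 CPM in starved cells, 29.2, 9.46 and 16.3 with solvent, 13.5, 9.61 and 13.4 with DMA and 8.99, 6.90 and 10.5 with C646. The groups overlapped. GINS1 rose by 1.08 (SE 0.34, adjusted p = 0.0333), but was not called without solvent library 1 (0.57, adjusted p = 0.186) and without starved library 1 or 2 (0.0983 and 0.127). CDC45, which completes the helicase with GINS, measured 8.54, 12.7 and 9.84 CPM in starved cells, 13.3, 6.50 and 6.76 with solvent, 7.94, 8.0 and 5.13 with DMA and 5.06, 6.61 and 6.35 with C646. Its log2 fold change with solvent, -0.23 (SE 0.29), was the lowest of the group, and was -0.64 without solvent library 1. GINS4 measured 8.06, 12.8 and 10.8 CPM in starved cells, 21.0, 10.9 and 16.4 with solvent, 13.4, 12.8 and 11.9 with DMA and 10.4, 13 and 14.4 with C646. The groups overlapped. GINS4 had the smallest difference between C646 and solvent of the group (-0.35, SE 0.24; -0.11 without solvent library 1), and its count is uncertain, since genes on the other strand cover 23.6% of its exons. GINS2 and GINS3 were not called.

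At the fork, 3 of 20 genes rose after stimulation and 1 fell, against 12.6% and 11.7% of all genes. PCNA, the clamp that holds polymerases on DNA (chromosome 20, 5114953 to 5126626 on GRCh38, minus strand), measured 54.5, 52.4 and 56.4 CPM in starved cells, 166, 105 and 124 with solvent, 90.1, 80.7 and 81.5 with DMA and 106, 77.5 and 81.3 with C646. All stimulated libraries were above all starved ones, and the DMA libraries lay between starved and solvent cells. PCNA rose by 1.28 with solvent (SE 0.16, adjusted p = 0.000157), and by 1.08 without solvent library 1 (adjusted p = 0.000624). Its differences from solvent were -0.65 with DMA (SE 0.16, adjusted p = 0.056) and -0.58 with C646 (SE 0.16, adjusted p = 0.0885), which did not pass, and -0.45 and -0.38 without solvent library 1. RFC1, the largest subunit of the complex that loads PCNA, measured 139, 121 and 118 CPM in starved cells, 92.1, 68.3 and 66.7 with solvent, 72.8, 64.4 and 53.8 with DMA and 66.3, 61.8 and 60.4 with C646. All stimulated libraries were below all starved ones. RFC1 (chromosome 4, 39287456 to 39366375, minus strand) fell by 0.74 with solvent (SE 0.14, adjusted p = 0.0027), and by 0.90 without solvent library 1, while with spike-in scaling it measured -0.19 (adjusted p = 0.698), which ends the call. The other 4 RFC subunits had positive log2 fold changes in the fit to all libraries, and none was called. Their log2 ratios to the starved mean were highest in solvent library 1. In solvent libraries 1, 2 and 3 they were 0.857, -0.086 and 0.178 for RFC2 and 1.315, 0.132 and 0.662 for RFC3. For RFC4 they were 0.997, 0.085 and 0.09, and for RFC5 0.949, -0.011 and -0.03.

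FEN1, the nuclease that trims Okazaki fragments, measured 24.3, 20.9 and 23.4 CPM in starved cells, 85.6, 31.4 and 45.9 with solvent, 42.9, 28.1 and 37.6 with DMA and 31, 26.6 and 28.4 with C646. Every stimulated library was above every starved one, and the C646 libraries were below the solvent ones. FEN1 rose by 1.25 with solvent (SE 0.28, adjusted p = 0.00719), and by 0.76 without solvent library 1 (adjusted p = 0.0202). RPA2, a subunit of the complex that coats single-stranded DNA, measured 26.7, 29.1 and 29.4 CPM in starved cells, 48.5, 37.5 and 35.1 with solvent, 27.5, 26.3 and 25.9 with DMA and 22, 25.1 and 26.7 with C646. All solvent libraries were above all others. RPA2 rose by 0.51 with solvent (SE 0.14, adjusted p = 0.0179). It was lower than solvent by 0.61 with DMA (SE 0.14, adjusted p = 0.0452) and by 0.72 with C646 (SE 0.14, adjusted p = 0.0299). The rise missed the threshold without solvent library 1 (0.36, adjusted p = 0.0831) and without starved library 1 or 2 (0.0693 and 0.0518). The DMA call ended without solvent library 1 or 2 or any DMA library (adjusted p = 0.187, 0.0834, 0.0651, 0.16 and 0.111), and the C646 call without solvent library 1 or 2 or any C646 library (0.13, 0.0541, 0.127, 0.0782 and 0.0525). With spike-in scaling the inhibitor differences of RPA2 measured -0.34 and -0.53, with no call.

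POLE2, a small subunit of the leading strand polymerase, had the lowest levels of the 58 genes. It measured 1.63, 0.837 and 0.998 CPM in starved cells, 4.71, 1.58 and 2.04 with solvent, 1.05, 0.626 and 0.856 with DMA and 1.20, 0.806 and 0.823 with C646. The libraries with either inhibitor were below all solvent ones, and the differences of -1.72 with DMA (SE 0.45, adjusted p = 0.0691) and -1.56 with C646 (SE 0.44, adjusted p = 0.0969) were the lowest at the fork. They were -1.10 and -0.94 without solvent library 1, and with the library number as a block, a fit that compares libraries of the same number, both passed (adjusted p = 0.00764 and 0.0123). POLD2, a subunit of the lagging strand polymerase, had the highest level per length of all 58 genes. It measured 148, 138 and 125 CPM in starved cells, 150, 138 and 143 with solvent, 182, 135 and 149 with DMA and 157, 145 and 135 with C646, with overlap between all groups. Its log2 fold changes were 0.07 with solvent (SE 0.12), 0.12 with DMA against solvent (SE 0.12) and 0.02 with C646 against solvent (SE 0.12). POLD1, the catalytic subunit, measured 13.8, 16.1 and 8.34 CPM in starved cells, 9.49, 9.29 and 7.52 with solvent, 9.29, 10.2 and 6.80 with DMA and 9.95, 14.4 and 6.03 with C646. These groups overlapped too, and the value for C646 against solvent (0.21, SE 0.30) was the highest at the fork. The remaining 13 genes of the fork were not called in the 3 comparisons that include solvent.

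Of the 4 genes of nucleotide supply, edgeR and DESeq2 each called 0 after stimulation, 0 with DMA and 0 with C646 against solvent. The shares of all genes were 24.3%, 1.75% and 1.21% in edgeR and 28.5%, 7.18% and 5.84% in DESeq2. In edgeR 1, 3 and 2 of the 4 genes had an unadjusted p below 0.05. The share of all genes at that unadjusted threshold was not counted, here or in later paragraphs. RRM2, the regulated subunit of ribonucleotide reductase, measured 72.6, 142 and 104 CPM in starved cells, 176, 84.6 and 88.3 with solvent, 74.5, 85.8 and 58.3 with DMA and 70.3, 74.6 and 67.4 with C646. Its log2 fold change with solvent was 0.13 with all libraries (SE 0.28) and -0.29 without solvent library 1. TYMS, thymidylate synthase, measured 44.1, 62.7 and 49.4 CPM in starved cells, 102, 72.4 and 50.5 with solvent, 68.0, 67.2 and 53.0 with DMA and 56.6, 63.8 and 44.9 with C646. The groups overlapped, with log2 fold changes of 0.52 with solvent (SE 0.23, adjusted p = 0.114), -0.26 with DMA and -0.44 with C646, and 0.24, 0.03 and -0.16 without solvent library 1. RRM2 and TYMS are uncertain, with 20.2% and 46.6% of their exons shared with overlapping genes. TK1, thymidine kinase, measured 33.1, 36.6 and 32.5 CPM in starved cells, 32.3, 32.5 and 36.2 with solvent, 51.8, 39.1 and 41.4 with DMA and 36.5, 42.4 and 33.4 with C646. The DMA libraries of TK1 were all above the solvent ones, and its log2 fold change of 0.39 (SE 0.14, adjusted p = 0.146) did not pass. RRM1, the other reductase subunit, was not called.

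Of the 6 checkpoint and repair genes, 3 rose after stimulation, against 12.6% of all genes. None of these 3 calls held without solvent library 1. CLSPN, which passes the signal of the kinase ATR to CHK1, measured 6.60, 9.50 and 6.84 CPM in starved cells, 34.6, 10.0 and 11.9 with solvent, 6.98, 4.65 and 4.80 with DMA and 7.46, 5.93 and 6.12 with C646. All solvent libraries were above all others. CLSPN rose by 1.30 with solvent (SE 0.39, adjusted p = 0.0289), and was lower than solvent by 1.79 with DMA (SE 0.40, adjusted p = 0.043). With solvent library 1 left out these values were 0.52 (adjusted p = 0.178) and -1.0 (adjusted p = 0.134). The rise also ended without any starved library (adjusted p = 0.0992, 0.0508 and 0.081), and the DMA call without any DMA library (0.0521, 0.171 and 0.115). With C646 CLSPN measured -1.54 (SE 0.39, adjusted p = 0.0752; -0.76 without solvent library 1), which passed with the block (adjusted p = 0.0331), and with spike-in scaling the DMA difference was -1.37 (adjusted p = 0.086).

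TIPIN, a partner of TIMELESS that steadies stalled forks, measured 6.08, 7.08 and 9.41 CPM in starved cells, 16.6, 11.6 and 15.7 with solvent, 7.18, 6.62 and 10.4 with DMA and 7.04, 7.06 and 10.7 with C646. All solvent libraries were above all others, and solvent library 3 was close to library 1. TIPIN rose by 0.97 with solvent (SE 0.25, adjusted p = 0.014). It measured 0.87 without solvent library 1 (adjusted p = 0.051), and the call also ended without starved library 1 or 2 (0.0648 and 0.0574). The count of TIPIN is uncertain, since another gene covers 21.0% of its exons. EXO1, a nuclease of repair and resection, measured 6.96, 7.41 and 8.34 CPM in starved cells, 28.4, 8.42 and 11.3 with solvent, 8.44, 5.54 and 6.56 with DMA and 7.67, 6.57 and 9.83 with C646. EXO1 rose by 1.09 (SE 0.37, adjusted p = 0.0471), and measured 0.39 without solvent library 1 (adjusted p = 0.318), and its call ended without any starved library too (0.132, 0.126 and 0.08).

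SMC6, a subunit of the SMC5/6 complex that acts in recombination repair, measured 41.3, 38.5 and 37.6 CPM in starved cells, 59.0, 43.1 and 41.5 with solvent, 27.5, 23.3 and 28.0 with DMA and 27.8, 30.4 and 21.8 with C646. All libraries with either inhibitor were below all starved and all solvent libraries. SMC6 (chromosome 2, 17663812 to 17800242, minus strand) was lower than solvent by 0.87 with DMA (SE 0.16, adjusted p = 0.0231) and by 0.84 with C646 (SE 0.16, adjusted p = 0.0272). Leaving out solvent library 1 gave -0.69 (adjusted p = 0.096) and -0.67 (adjusted p = 0.128). The DMA call also ended without solvent library 2 or DMA library 2 (0.0565 and 0.135), and the C646 call without C646 library 1 or 3 (0.094 and 0.0789). With spike-in scaling they measured -0.59 and -0.67, with no call. BRCA1, a repair gene with a role at stalled forks, measured 26.9, 19.9 and 18.9 CPM in starved cells, 34.9, 15.6 and 19.2 with solvent, 20.8, 15.5 and 17.4 with DMA and 11.6, 11.9 and 14.2 with C646. The C646 libraries were below all others, and the difference from solvent of -0.89 (SE 0.26, adjusted p = 0.105; -0.47 without solvent library 1) passed with the block (adjusted p = 0.0275). TIMELESS, which steadies forks together with TIPIN, measured 35.8, 52.0 and 39.0 CPM in starved cells, 43.8, 37.2 and 27.1 with solvent, 23.9, 37.7 and 21.2 with DMA and 23.5, 37.3 and 28.5 with C646. All groups overlapped, and the log2 fold changes were -0.23 with solvent (SE 0.25), the lowest of the checkpoint genes, and -0.28 for C646 against solvent (SE 0.25), the highest of them, or -0.40 and -0.11 without solvent library 1.

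In chromatin replication, edgeR called 0 of 4 genes after stimulation, 0 with DMA and 0 with C646, against 24.3%, 1.75% and 1.21% of all genes. Of the 4 genes, 0, 2 and 3 had an unadjusted p below 0.05. DESeq2 called 1, UHRF1, lower with DMA, against 3.63% of all genes lower. UHRF1, which guides DNA methylation to new strands, measured 32.5, 41.2 and 23.0 CPM in starved cells, 76.1, 38.8 and 39.4 with solvent, 33.9, 23.6 and 16.4 with DMA and 30.7, 35.0 and 20.1 with C646. The libraries with either inhibitor were below all solvent ones, with differences of -1.07 for DMA (SE 0.33, adjusted p = 0.112) and -0.85 for C646 (SE 0.33, adjusted p = 0.22), both of which passed with the block (adjusted p = 0.0112 and 0.0353). Without solvent library 1 they were -0.67 and -0.45. CHAF1B, a subunit of a histone chaperone, measured 11, 11.1 and 17.5 CPM in starved cells, 26, 10.0 and 17.7 with solvent, 8.14, 7.56 and 11.8 with DMA and 6.96, 7.02 and 12.8 with C646. Each pair of groups overlapped, with solvent libraries 1 and 3 above all libraries with an inhibitor, and the values against solvent were -0.97 with DMA (SE 0.35) and -1.0 with C646 (SE 0.35), or -0.60 and -0.63 with solvent library 1 left out. DNMT1, the maintenance DNA methyltransferase, measured 50.6, 67.8 and 29.2 CPM in starved cells, 48.2, 41.4 and 29.9 with solvent, 62.4, 43.5 and 22.3 with DMA and 33.2, 33.6 and 41.8 with C646. Its levels spread within groups and overlapped between them, with log2 fold changes of -0.31 with solvent, 0.10 with DMA and -0.14 with C646, or -0.47, 0.26 and 0.02 without solvent library 1.

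The 4 other genes of S-phase entry had the medians farthest from 0 of the 7 groups, with a median log2 fold change of 1.42 after stimulation, -1.75 with DMA and -2.01 with C646. Without solvent library 1 these medians were 0.71, -0.91 and -1.19. FAM111B, which encodes a trypsin-like protease (chromosome 11, 59107185 to 59127410, plus strand), measured 5.55, 4.06 and 5.13 CPM in starved cells, 65.8, 13.5 and 19.3 with solvent, 5.22, 3.80 and 2.95 with DMA and 5.97, 4.92 and 7.27 with C646. Every solvent library was above every other library. FAM111B rose by 2.75 with solvent (SE 0.50, adjusted p = 0.00201), was lower than solvent by 3.04 with DMA (SE 0.50, adjusted p = 0.0182) and by 2.44 with C646 (SE 0.49, adjusted p = 0.0361). Without solvent library 1 the values were 1.74 (adjusted p = 0.00166), -2.04 (adjusted p = 0.0379) and -1.44 (adjusted p = 0.0659). The DMA call ended without DMA library 2 or 3 (0.101 and 0.0504), and the C646 call without any C646 library (0.131, 0.115 and 0.0844). WDR76, a WD-repeat gene, measured 12, 13 and 15.3 CPM in starved cells, 52.3, 14.0 and 15.9 with solvent, 7.18, 7.42 and 8.08 with DMA and 7.29, 6.98 and 7.40 with C646. Solvent libraries 2 and 3 lay near the starved ones, and all libraries with an inhibitor were below them. WDR76 was not called after stimulation (1.03, SE 0.39, adjusted p = 0.0702). It was lower than solvent by 1.86 with DMA (SE 0.40, adjusted p = 0.0395) and by 1.92 with C646 (SE 0.40, adjusted p = 0.0402). Leaving out solvent library 1 gave -0.98 (adjusted p = 0.0635) and -1.05 (adjusted p = 0.049). Leaving out any DMA library ended the first call (0.075, 0.154 and 0.0855), and leaving out any C646 library the second (0.141, 0.115 and 0.0998).

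CDCA7, a MYC and E2F target that binds the chromatin remodeller HELLS, measured 14.6, 10.6 and 13.3 CPM in starved cells, 59.1, 18.8 and 25.9 with solvent, 16.1, 10.1 and 15.1 with DMA and 11.6, 11.7 and 8.50 with C646. Every solvent library was above every other library. CDCA7 rose by 1.43 with solvent (SE 0.35, adjusted p = 0.0113) and by 0.80 without solvent library 1 (adjusted p = 0.0392), and the call ended without starved library 2 (0.0537). With C646 it was lower than solvent by 1.71 (SE 0.36, adjusted p = 0.0404), which ended without solvent library 1 (-1.07, adjusted p = 0.118) and without any C646 library (0.125, 0.0971 and 0.111). With DMA it measured -1.33 (SE 0.35, adjusted p = 0.0725; -0.70 without solvent library 1), and passed with the block (adjusted p = 0.0208). ZNF367, a zinc finger gene, measured 6.96, 6.15 and 6.99 CPM in starved cells, 32.7, 10.1 and 10.5 with solvent, 6.28, 6.66 and 4.28 with DMA and 4.48, 4.07 and 3.98 with C646. The solvent libraries were above all others, and the C646 libraries were below the starved ones. ZNF367 rose by 1.41 with solvent (SE 0.38, adjusted p = 0.0167), which ended without solvent library 1 (0.63, adjusted p = 0.0747) and without starved library 1 or 2 (0.0508 and 0.0669). It was lower than solvent by 2.09 with C646 (SE 0.39, adjusted p = 0.0265), and by 1.31 without solvent library 1 (adjusted p = 0.0492), and this call ended without any C646 library (0.0999, 0.0788 and 0.077). With DMA it measured -1.63 (SE 0.38, adjusted p = 0.0509; -0.85 without solvent library 1), and passed with the block (adjusted p = 0.0187).

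**Figure D3:**
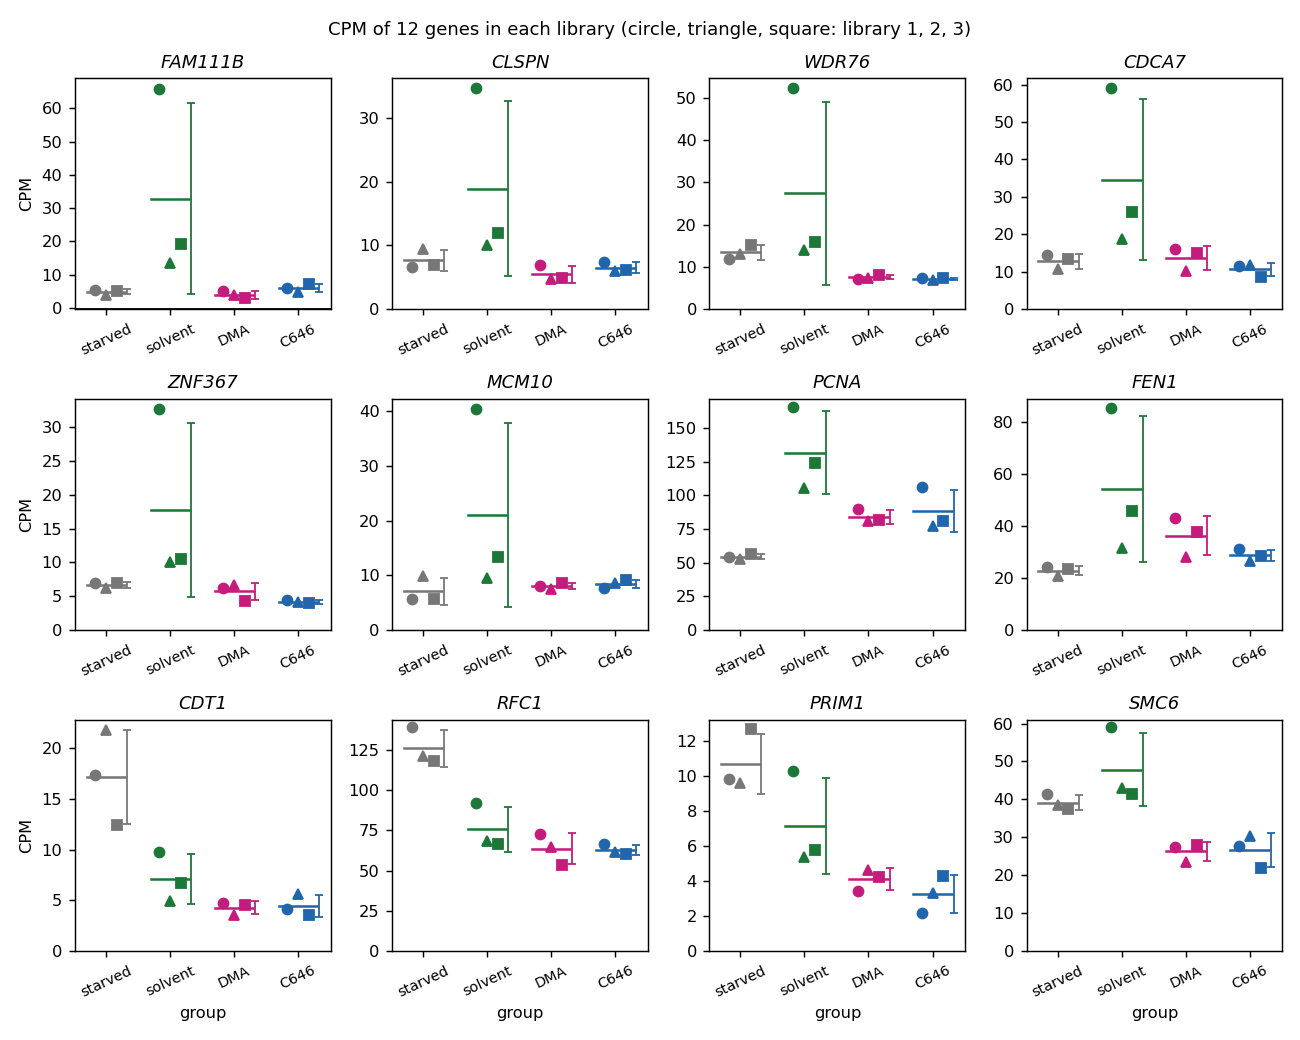
CPM of 12 of the genes by group, with circles, triangles and squares for libraries 1, 2 and 3, a line at the mean and a bar of 1 SD (n = 3). For FAM111B, CLSPN, CDCA7 and ZNF367 the circle of solvent library 1 lies far above the other solvent libraries, which are themselves above all starved libraries, while CDT1 and RFC1 are highest in starved cells.

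Setting DMA against solvent addresses refeeding while Na+/H+ exchange is inhibited. Of the 58 genes, 5 were lower (RPA2, CLSPN, SMC6, FAM111B and WDR76) and 0 higher, against 1.02% lower and 0.734% higher of all genes tested. They belong to the fork, to checkpoint and repair and to the other genes, and 0 of 14 licensing genes, 0 of 6 of helicase activation and 0 of 4 of nucleotide supply were called by edgeR, with 9, 3 and 3 at an unadjusted p below 0.05. DESeq2 called 5, 1 and 0 of these, against 7.18% of all genes in either direction. Negative values were found for 54 of the 58, with a median of -0.66 against 0.01 for all genes. By role, the median was -0.72 for licensing, -0.63 for helicase activation, -0.60 for the fork, -0.38 for nucleotide supply, -0.86 for checkpoint and repair, -0.75 for chromatin replication and -1.75 for the other genes. With solvent library 1 left out, these medians were, in the same order, -0.30, -0.20, -0.19, -0.11, -0.61, -0.38 and -0.91. Without solvent library 1, 1 gene stayed lower (FAM111B, against 0.0383% of all genes), 49 values were negative and the median was -0.28. The libraries of the groups did not overlap for 27 genes that were lower with DMA, against 11.9% of all genes, and since solvent library 1 was the highest solvent library for 56 of the 58, libraries 2 and 3 set that separation. Within numbers 1, 2 and 3, the median log2 ratio was -1.0, -0.22 and -0.42, with 55, 44 and 52 genes below 0. The labels state no pairing, but libraries of the same number were taken as paired from the correlation of their values. The main fit, which gave the edgeR counts by role above, does not use this pairing. With the block 16 genes were lower, against 5.46% of all genes, among them PCNA (-0.63, adjusted p = 0.00639), TIPIN (-0.88, adjusted p = 0.0095), POLE2 and UHRF1. With the block and without solvent library 1, 6 genes were lower, against 1.7% of all genes. Leaving out DMA library 1, 2 or 3 gave 2, 0 and 1 calls, against 1.82%, 0.0064% and 0.761% of all genes in either direction. Leaving out solvent library 2 gave 3, against 0.192%. Scaling to the spike-in controls gave 1, against 0.0393% of all genes lower.

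Setting C646 against solvent addresses refeeding while p300 and CBP are inhibited. Here 6 genes were lower (RPA2, SMC6, FAM111B, WDR76, CDCA7 and ZNF367) and 0 higher, against 0.4% lower and 0.812% higher of all genes. All 4 of the other genes of S-phase entry passed, beside 1 of 20 at the fork, 1 of 6 in checkpoint and repair and 0 in licensing, helicase activation, nucleotide supply and chromatin replication. Those 4 groups hold 14, 6, 4 and 4 genes, and between 2 and 13 genes of each had an unadjusted p below 0.05. The share of all genes at that threshold was not counted. Negative values were found for 55 of the 58, with a median of -0.72 against 0.01 for all genes. By role, the median was -0.69 for licensing, -0.85 for helicase activation, -0.70 for the fork, -0.50 for nucleotide supply, -0.87 for checkpoint and repair, -0.76 for chromatin replication and -2.01 for the other genes. With solvent library 1 left out, they were, in the same order, -0.38, -0.45, -0.30, -0.22, -0.57, -0.37 and -1.19. Without solvent library 1, WDR76 and ZNF367 stayed lower (against 0.0256% of all genes), 53 values were negative and the median was -0.38. The libraries did not overlap for 29 genes that were lower with C646, against 11.6% of all genes. Within numbers 1, 2 and 3, the median log2 ratio was -1.30, -0.29 and -0.39, with 55, 45 and 55 genes below 0. With the block, 21 genes were lower, against 3.73% of all genes, among them PCNA (-0.57, adjusted p = 0.0108), FEN1 (-0.83, adjusted p = 0.0289) and GINS1 (-0.99, adjusted p = 0.0258), and without solvent library 1 there were 7, against 0.722%. UHRF1 passed with the block too. The counts of 0 for helicase activation and chromatin replication thus belong to the main fit, which does not use the pairing. In the main fit, leaving out C646 library 1, 2 or 3 gave 0, 1 and 0 calls, against 0.224%, 0.731% and 0.423% of all genes. DMA and C646 were compared with the same solvent libraries, so the likeness of their values is no separate evidence.

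**Figure D4:**
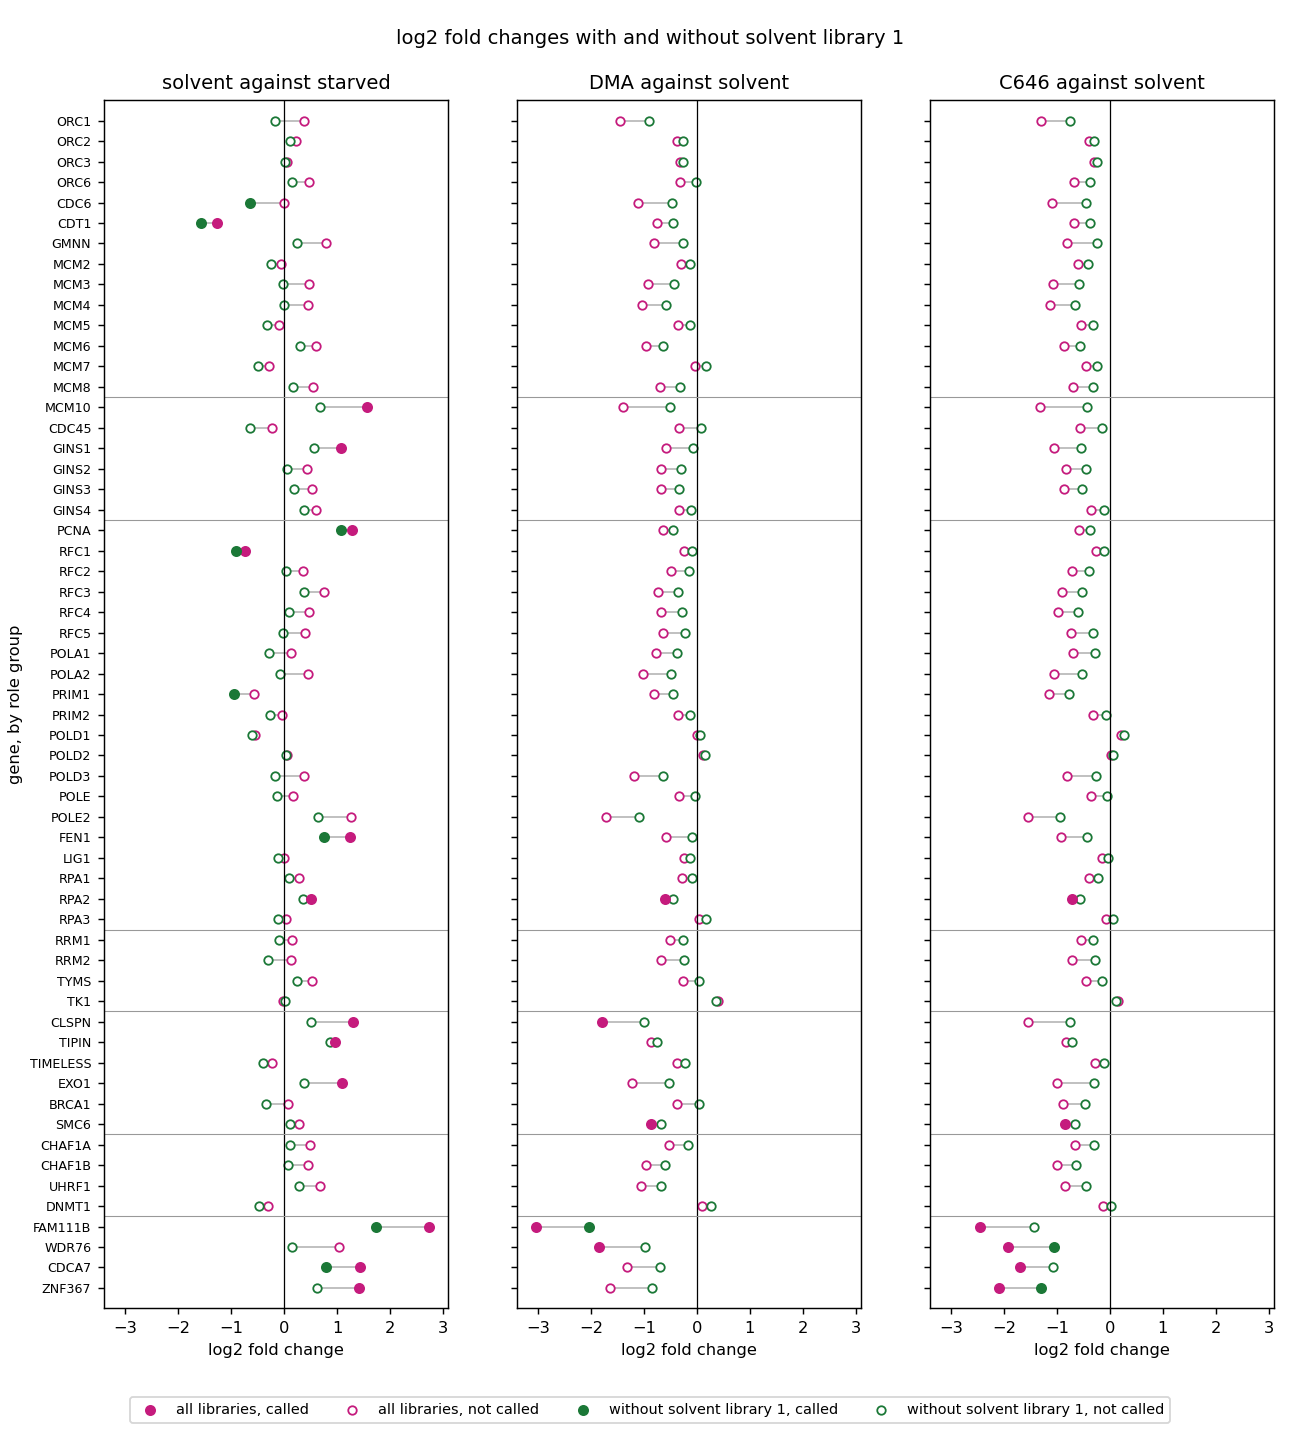
Log2 fold changes of the 58 genes in the 3 comparisons with solvent cells, fitted with all libraries (magenta) and without solvent library 1 (green), with filled points for calls at an adjusted p below 0.05. In the 2 right panels most green points lie closer to 0 than the magenta ones, and 49 and 53 of the 58 remain negative.

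In the direct comparison of DMA with C646, 0 of the 58 genes were called by edgeR, against 2.89% of all genes (0.943% higher and 1.95% lower), with 1 at an unadjusted p below 0.05 and 0 by DESeq2. The log2 differences, DMA minus C646, ran from -0.60 for FAM111B (SE 0.49) to 0.52 for BRCA1 (SE 0.26, adjusted p = 0.342), with a median of 0.05. MCM7 was the gene below the unadjusted threshold (0.41, SE 0.17, adjusted p = 0.235), and its DMA libraries were all above the C646 ones. The same held for BRCA1, RFC2, MCM3 and MCM5, and the reverse for POLD3, against 10.5% and 11.1% of all genes.

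The cells stimulated with an inhibitor were also compared with starved cells, which does not use the solvent libraries. With DMA, PCNA was higher and ORC1, CDC6, CDT1, RFC1, PRIM1 and SMC6 were lower (1 and 6 of 58, against 13.9% and 13% of all genes). With C646, PCNA was higher and CDC6, CDT1, MCM2, MCM5, MCM7, RFC1, PRIM1, BRCA1 and SMC6 were lower (1 and 9 of 58, against 12.9% and 11.7%). PCNA rose by 0.63 with DMA (SE 0.16, adjusted p = 0.0111) and by 0.70 with C646 (SE 0.16, adjusted p = 0.00704). CDT1 fell by 2.02 (SE 0.29, adjusted p = 0.000368) and 1.96 (SE 0.29, adjusted p = 0.000459), and RFC1 by 0.99 (SE 0.15, adjusted p = 0.000403) and 1.01 (SE 0.15, adjusted p = 0.000379). These 3 genes kept their calls without any 1 library. With C646, leaving out C646 library 1 gave 5 calls, and leaving out starved library 1 or 2 gave 6 each. The shares of all genes were 16.1%, 17.1% and 16.1%. CDC6 fell by 1.13 (SE 0.34, adjusted p = 0.0263) and 1.10 (SE 0.34, adjusted p = 0.031), calls that ended when starved library 1 or 3, any DMA library, or C646 library 1 or 2 was left out (adjusted p up to 0.0835 with DMA and 0.103 with C646). ORC1 fell by 1.07 with DMA (SE 0.37, adjusted p = 0.0464), and missed the threshold with the block (0.0625) and without starved library 2 or 3 or any DMA library (up to 0.143).

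PRIM1, the catalytic subunit of primase, and MCM5 are described because of their calls here and were chosen after their values were seen. PRIM1 measured 9.82, 9.63 and 12.7 CPM in starved cells, 10.3, 5.38 and 5.78 with solvent, 3.42, 4.65 and 4.23 with DMA and 2.15, 3.31 and 4.30 with C646. All libraries with an inhibitor were below all others. PRIM1 fell against starved cells by 1.38 with DMA (SE 0.30, adjusted p = 0.00477) and by 1.72 with C646 (SE 0.31, adjusted p = 0.0015), and these calls held without any 1 library. The count of PRIM1 is uncertain, since other genes cover 21.6% of its exons. In the MCM ring, C646 was lower than starved cells for MCM7 by 0.73 (SE 0.17, adjusted p = 0.00898), a call that held without any 1 library, for MCM2 by 0.66 (SE 0.22, adjusted p = 0.0432) and for MCM5 by 0.64 (SE 0.18, adjusted p = 0.0203). The MCM2 call ended without any starved library or C646 library 1 or 3 (up to 0.163) and the MCM5 call without starved library 2 or C646 library 1 (0.0791 and 0.084). SMC6 was lower than starved cells by 0.58 with DMA (SE 0.16, adjusted p = 0.0194) and by 0.55 with C646 (SE 0.16, adjusted p = 0.0253), and missed the threshold without starved library 1 or DMA library 2 (0.0657 and 0.0791) and without starved library 1 or 2 or C646 library 1 or 3 (up to 0.0889). BRCA1 fell by 0.81 with C646 (SE 0.26, adjusted p = 0.039), and missed it without starved library 1 or 2 or any C646 library (up to 0.152). With spike-in scaling, which raises the median of all genes by 0.81 with DMA and 0.73 with C646 against starved cells, the calls were 12 higher and 1 lower with DMA (against 42.2% and 0.884% of all genes) and 7 higher and 1 lower with C646 (against 33.4% and 0.812%), and SMC6 with both inhibitors and MCM2 and MCM5 with C646 changed sign. PCNA (1.43 and 1.38, adjusted p = 0.000326 and 0.000731) and CDT1 (-1.22 and -1.22, adjusted p = 0.0134 and 0.017) were still called, while the calls of RFC1 (-0.19 and -0.29), PRIM1 (-0.56 and -0.97), CDC6 (-0.30 and -0.35), ORC1 (-0.26 with DMA), MCM7 (-0.00 with C646) and BRCA1 (-0.05 with C646) ended.

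Levels per length, as TPM (transcript abundance per library, corrected for length), were highest for POLD2 (166.8 as the mean of the 4 group means), PCNA (101.1) and MCM7 (74.6), and lowest for POLE2 (1.91), ZNF367 (3.24) and POLA1 (3.33). Within the MCM2 to MCM7 ring, the mean TPM differed 6.23-fold in starved cells between MCM6 (15.1) and MCM7 (94.0), and 4.10-fold with solvent between MCM2 (23.5) and MCM4 (96.4). Within the RFC complex, RFC1 had the highest mean TPM in every group, 75.6 in starved and 37.6 in solvent cells, and RFC3 the lowest, 9.73 and 16.6. The span between them was 7.78-fold in starved cells, 2.27-fold with solvent, 3.13-fold with DMA and 3.68-fold with C646. The solvent means include solvent library 1, and no span was computed without it. In solvent libraries 1, 2 and 3, RFC3 measured 24.9, 9.85 and 14.9 TPM and RFC1 39.9, 35.9 and 37.0. MCM4 measured 143, 73.4 and 72.4 there, MCM2 29.7, 18.8 and 21.9, and MCM6 37.3, 16.4 and 22.6. GINS subunits were within 1.56-fold to 1.99-fold of each other, and RPA subunits within 1.78-fold to 2.59-fold.

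Among 57 further genes of the pathway, listed by role and not by their change, 15 rose and 3 fell after stimulation, against 12.6% and 11.7% of all genes tested. Leaving out solvent library 1 gave 7 and 5, against 9.05% and 8.37%. Upstream E2F and cyclin E genes made up 7 of the 15, and E2F7 of the same list fell. Without solvent library 1, 4 of the 12 genes of that list were higher and 1 lower. SKP2, which marks the inhibitor p27 for degradation, measured 9.16, 5.65 and 9.62 CPM in starved cells and 35.9, 21.3 and 24.8 with solvent, and rose by 1.76 (SE 0.25, adjusted p = 0.000339). POLE3, an accessory subunit of the leading strand polymerase, rose by 0.92 (SE 0.17, adjusted p = 0.00176), and ASF1B, a histone chaperone, by 0.95 (SE 0.21, adjusted p = 0.00627). RAD9A, a subunit of the checkpoint clamp, fell by 1.62 (SE 0.17, adjusted p = 5.38e-05), from 20.4 to 21.3 CPM in starved cells to 6.33 to 7.56 CPM with solvent. SKP2, POLE3, ASF1B and RAD9A kept these calls without any 1 library. With DMA against solvent, 1 of the 57 was higher and 3 lower, against 0.734% and 1.02% of all genes. The 3 lower genes, E2F1, E2F2 and CCNE2, belong to the upstream list. With C646 against solvent, 0 were higher and 2 lower, against 0.812% and 0.4%. With the block, 2 were higher and 14 lower with DMA (4.76% and 5.46% of all genes), and 1 higher and 18 lower with C646 (4.12% and 3.73%). Leaving out solvent library 1, without the block, gave 0 calls with DMA and 0 with C646, against 0.0511% and 0.153% of all genes. TOP1, topoisomerase I, measured 135, 147 and 142 CPM with solvent, 176, 267 and 220 with DMA and 108, 114 and 134 with C646, and was higher with DMA by 0.65 (SE 0.14, adjusted p = 0.04). The call ended without any solvent library or DMA library 2 or 3 (adjusted p = 0.16, 0.0905, 0.0709, 0.16 and 0.0855). ORC5, an origin recognition subunit, measured 32.5, 26.5 and 28.7 CPM with solvent and 15.3, 17.5 and 17.1 with C646, and was lower by 0.81 (SE 0.14, adjusted p = 0.0143). It missed the threshold without solvent library 1 or C646 library 1 (0.0757 and 0.0799). Of 12 marker genes of G2 and M phase, 0 were called with DMA or C646 against solvent, with medians of 0.15 and -0.58, which were 0.42 and -0.33 without solvent library 1. The block called 0 with DMA and 1, lower, with C646. Against C646, DMA was higher for 2 of them (4 with the block), against 0.943% of all genes (3.96% with the block). The median of these markers was 0.71, while that of the 58 genes was 0.05.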

How the data were processed

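RNA of 12 RPE-1 libraries was measured as poly-A RNA with a stranded kit, per the labels' protocols. Reads were trimmed with Trimmomatic 0.36 and mapped with STAR 2.7.0e, and the genome build was GRCh38.p10, per the submitters' processing notes. For the quantifier, annotation and strand setting, the name and version were not given in the sources used here. Deposited files list, per transcript, estimated counts, TPM and an effective length, per the file headers. Estimated counts were summed per gene through GENCODE 29, including reads divided between transcripts, and rounded to whole numbers. Besides the genes, 264 transcripts matched no gene, and 92 spike-in controls were present at 0.527% to 1.28% of the counts. Both stayed out of the library sizes.

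Genes were kept with edgeR 4.0.16 (filterByExpr, at least 10 counts, 15 in total), scaled by TMM, and fitted for all 12 libraries with the robust quasi-likelihood test (R 4.3.3). Adjustment was by Benjamini-Hochberg across 15263 genes in each of 6 comparisons, with a threshold of 0.05. SE is the log2 fold change divided by the square root of F. The test was checked on simulated counts. Depths of 14910516 to 28968510 counts limit precision through counting error only. DESeq2 1.42.0 and the settings in the closing section were alternatives. Replicates differed by more than sampling noise, with a mean chi-square per gene of 20.9 to 55.0.

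The 58 genes, the further lists and the tests were chosen with earlier results of these data known. Values in every library are given for genes called in a comparison that includes solvent, for 13 genes fixed whatever their test, and for the highest and lowest of each role group. Further pathway genes were limited to the 3 smallest p-values of each list. Counts are named uncertain for genes where over 20% of the exons overlap another gene or over 20% of the 31-base words occur elsewhere, which applies to 9 of the 58 (MCM2, GINS4, POLA2, PRIM1, PRIM2, RRM2, TYMS, TIPIN and UHRF1).

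Libraries of the same number were taken as paired where the correlation of their deviations from the group means was over 0.1 for every number. It was 0.331, 0.355 and 0.475 for DMA and solvent, 0.284, 0.379 and 0.367 for C646 and solvent, 0.399, 0.276 and 0.483 for DMA and C646, 0.128, 0.274 and 0.305 for DMA and starved, and 0.153, 0.365 and 0.336 for C646 and starved. For solvent and starved it was 0.0957, 0.33 and 0.182, so number 1 missed the limit and they were not taken as paired. These values were still above the highest with another number (0.0631, -0.0146 and -0.084). Both groups met the limit with DMA and with C646, so pairing of solvent with starved libraries is not excluded.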

Additional observations from a re-analysis of the deposited data

How the results depend on the processing

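Of the 58 genes, 13 were called after stimulation, 5 with DMA and 6 with C646 against solvent, 0 between the inhibitors, and 7 with DMA and 10 with C646 against starved cells. Fitting only the compared groups gave 8 after stimulation, 0 with DMA and 0 with C646 against solvent, and 15 and 16 against starved cells. The shares of all genes called were then 23.3%, 0.215%, 0.487%, 26% and 24.1%, in the same order. DESeq2 called 20 with DMA and 25 with C646 against solvent. It also called more of all genes, 7.18% and 5.84%, against 1.75% and 1.21% in the main fit. Keeping all genes gave 8 with DMA against solvent (1.65% of all genes), and an offset for transcript length gave 1 (0.675%). Scaling to spike-in controls gave 26 after stimulation, 1 with DMA against solvent and 13 with DMA against starved cells. Of all genes, it called 22.4%, 0.596% and 43.1%. It reversed MCM2 (0.10) and MCM5 (0.09) with C646, and SMC6 with DMA (0.24) and C646 (0.17), against starved cells. The cause was not tested. With the library number as a replicate block, 16 were called with DMA and 21 with C646 against solvent, and 12 with DMA against starved cells. Of all genes, the block called 10.2%, 7.86% and 38.7%. In the 5 paired comparisons the block ended 1 call, that of ORC1. Solvent and starved libraries missed the limit for pairing at number 1. The block gave 18 calls there (35.7% of all genes), and 14 without solvent library 1 (29.2%). Leaving out 1 library at a time gave 6 to 22 calls after stimulation, 0 to 6 with DMA and 0 to 9 with C646 against solvent, and 5 to 6 with DMA and 5 to 8 with C646 against starved cells. The shares of all genes called were, in the same order, 14.6% to 22%, 0.0064% to 1.82%, 0.153% to 0.864%, 19.3% to 22.2% and 16.1% to 20.6%. Of 41 calls, 14 held without any 1 library, 0 of them in the comparisons of an inhibitor with solvent. The comparison of DMA with C646 gave 0 calls under every setting run. Each group had 3 libraries, and with solvent library 1 left out its group rests on 2.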
